A study of Ramazzottius varieornatus with 48 samples.

Results

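In the tardigrade Ramazzottius varieornatus, 64 genes had transcripts whose mean log2 abundance was higher at 1, 2 and 3 h after UVC exposure. At 9 and 12 h the mean difference from non-exposed animals was under a set limit. The 64 genes, called members, were selected by their measured values. Each has a single transcript and is named by its gene number, so that g7654 stands for transcript g7654.t1. The table of transcript abundances holds 14532 transcripts, of which 13369 belong to genes with a single transcript, and 8369 of these had a mean TPM (abundance relative to the summed transcripts of a library, corrected for length) of at least 10 over all libraries. The rule excluded 2 of them by name, which left 8367 that could be taken. For each transcript, D was the mean of log2(TPM + 1) over the 3 libraries of a time point minus the mean over the 3 non-exposed libraries of the same time course. A member had a D of at least 0.5 at each of 1, 2 and 3 h and a mean of its D at 9 and 12 h under 0.5. The first condition was met by 531 of the 8367 transcripts, and 467 of those stayed at or above 0.5 at 9 and 12 h, which left the 64 members, 0.765% of those that could be taken. Of the 2 transcripts excluded by name 1 met the conditions on D (g11193, a match to zinc metalloproteinase nas-14), with D of 1.05, 0.55 and 0.83 at 1, 2 and 3 h and 0.37 and 0.56 at 9 and 12 h. The limit at 9 and 12 h had no lower bound. At 9 h 11 members had a D of -0.5 or lower and 7 a D of 0.5 or higher, and at 12 h there were 10 and 12. Among the 8367 transcripts that could be taken, 1310 were as low and 2188 as high at 9 h, and 1637 and 1856 at 12 h. Nothing is read from these counts. Everything at 1, 2, 3, 9 and 12 h of the Short time course is therefore a description of how the members were chosen and was not tested.

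The study sequenced polyadenylated RNA from whole hydrated animals of strain YOKOZUNA-1. They were exposed to UVC on a gel at an intensity labelled 0.54 mW/cm2 and then incubated until collection. The methods give other intensities, and there the Short and Long courses differ in intensity and exposure time. Animals of the Short time course were collected hourly over 1 to 6 h and again at 9 h and 12 h, and those of the Long time course at 12 h, 18 h and 24 h and then at 36 h, 48 h and 72 h. Each course had its own non-exposed animals, collected at the start only, so exposure and the time spent away from the culture plates cannot be told apart. According to the methods, algae were added to the Long plates at 12 h, so feeding cannot be told apart from the exposure at the later Long times either. Each of the 16 groups had 3 libraries of 30 pooled animals, 27 Short and 21 Long in all, and the methods give the 3 libraries of a group as the ones chosen by RNA integrity. In whole animals, fewer cells of a type and less RNA per cell cannot be told apart.

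UVC is absorbed by DNA, where it joins neighbouring pyrimidines and blocks replication and transcription, and it also raises reactive oxygen species in cells. Cells answer damage of this kind by repairing DNA, by removing oxidised molecules and by adjusting protein synthesis. Cytochrome P450 enzymes oxidise foreign or damaged compounds and glutathione S-transferases couple them to glutathione. R. varieornatus survives desiccation and doses of radiation that kill most animals, and many of its proteins have no counterpart in other phyla. Protein names below are matches in the Swiss-Prot database to proteins of other species. Among the members 10 had such a name, 16 were listed without a match, and 38 were outside the annotation tables that were used. Those tables hold only transcripts that the study had picked as higher on these libraries. Having a name is therefore not independent of the values at any time of either course.

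The values are relative to the total of each library and keep no depth, so precision rests on the spread between the 3 libraries of a group. Libraries differed in how many of the 12088 transcripts kept for testing, those averaging 1 TPM or more, were listed at 0. This count was 3666 in Long 24 h replicate 1, 2875 in Short 4 h replicate 3 and 2615 in Short 5 h replicate 2, and between 568 and 2265 in the other 45 libraries. In those 3 libraries 17, 12 and 15 of the 64 members were listed at 0. Short non-exposed replicate 2 had 1850 transcripts and 8 members at 0, and Long non-exposed libraries had 1791 to 2265 transcripts and 6 to 8 members at 0. Such a 0 can be a failed estimate. The highest correlation between any 2 libraries was 0.924, and no library appeared to have been deposited more than once.

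As a group, the members rose at the first sampled time and were lower again at 4 h. Their median D was 0.95 at 1 h, 0.74 at 2 h, 0.85 at 3 h, 0.29 at 4 h, 0.20 at 5 h, 0.46 at 6 h, 0.12 at 9 h and 0.27 at 12 h. Over all 12088 transcripts tested the medians at 1, 2 and 3 h were -0.28, -0.10 and -0.15. Scaling each library to a common median moved the median of all transcripts at 1 h to 0.02 and that of the members to 1.25, so relative to the typical transcript the members stood higher than the deposited values show. The largest of the 3 early values fell at 1 h in 30 members, at 2 h in 15 and at 3 h in 19.

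The fall between 3 h and 9 h had no single course. At 4, 5 and 6 h, which the rule did not use, 19, 21 and 29 of the 64 members had a D of at least 0.5, against 21.8% of all transcripts tested at each of these times. These times share the non-exposed libraries with the rule. There were 26 members under 0.5 at each of 4, 5 and 6 h and 10 members at or above 0.5 at each of them. These joint counts have no share over all transcripts beside them and are descriptions only. The library with the most zeros at 4 h weighed on the first count, since 31 members reached 0.5 at 4 h without Short 4 h replicate 3. Without Short 5 h replicate 2 the count at 5 h was 30. Compared with 4 h by limma, no member passed the test at 5 h or at 6 h in either direction, with 7 and 6 members at an unadjusted p under 0.05, shares of 10.9% and 9.38%, against 11.4% and 9.69% of all transcripts tested. Over all transcripts tested 0.0496% were higher and 0.0414% lower at 5 h than at 4 h, and 0.00827% were higher and 0% lower at 6 h than at 4 h.

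**Figure D1:**
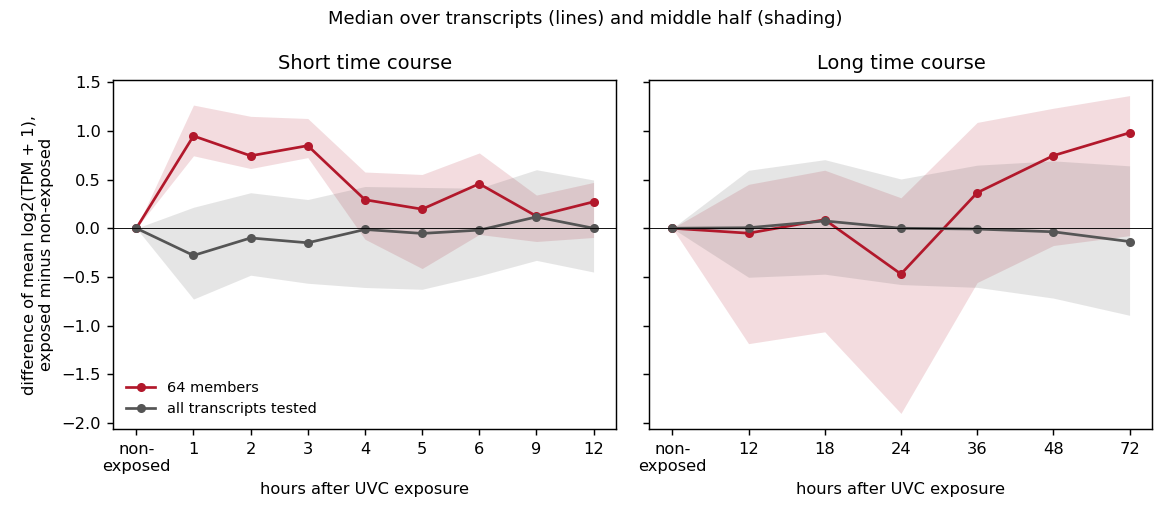
Median difference of log2(TPM + 1), exposed minus non-exposed, on the vertical axis against hours after UVC exposure for the 64 members (red) and all 12088 transcripts tested (grey), with shading between the quartiles. The members stand at 0.95, 0.74 and 0.85 at 1, 2 and 3 h of the Short course and again at 0.37, 0.75 and 0.98 at 36, 48 and 72 h of the Long course.

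How far the exposed and non-exposed libraries lay apart differed between members. All 3 exposed libraries stood above all 3 non-exposed ones in 34 members at 1 h, 26 at 2 h and 36 at 3 h, against 5.54%, 7.12% and 6.64% of all transcripts tested. At 4, 5, 6, 9 and 12 h the same was true of 6, 7, 15, 5 and 2 members, against 7.11%, 6.39%, 8.42%, 15.2% and 11.9%. For 23 of the 64 members all 9 libraries of 1 to 3 h lay above all 3 non-exposed libraries, against 2.00% of all transcripts tested. A D of at least 0.5, which the rule required of every member at 1, 2 and 3 h, was reached by 15.6%, 19.9% and 17.7% of all transcripts tested at these times. Since the rule used these libraries, the shares describe the members and nothing was read from them.

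Membership leaned on single non-exposed libraries. Short non-exposed replicate 2 was the lowest of the 3 in 40 of the 64 members, and it was the lowest in 2754 of the 8367 transcripts that could be taken. Without it the rule took 62 genes, of which 28 were among the 64, and without replicate 1 or replicate 3 of the non-exposed animals it took 83 or 94 genes with 36 of the 64 in each case. Leaving out any 1 library of the exposed groups kept between 55 and 62 of the 64. There were 11 members that stayed under each of the 3 omissions of a non-exposed library, and 8 that stayed under all 18 omissions, namely g4190, g11036, g7654, g7436, g3031, g5461, g4288 and g12592.

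**Figure D2:**
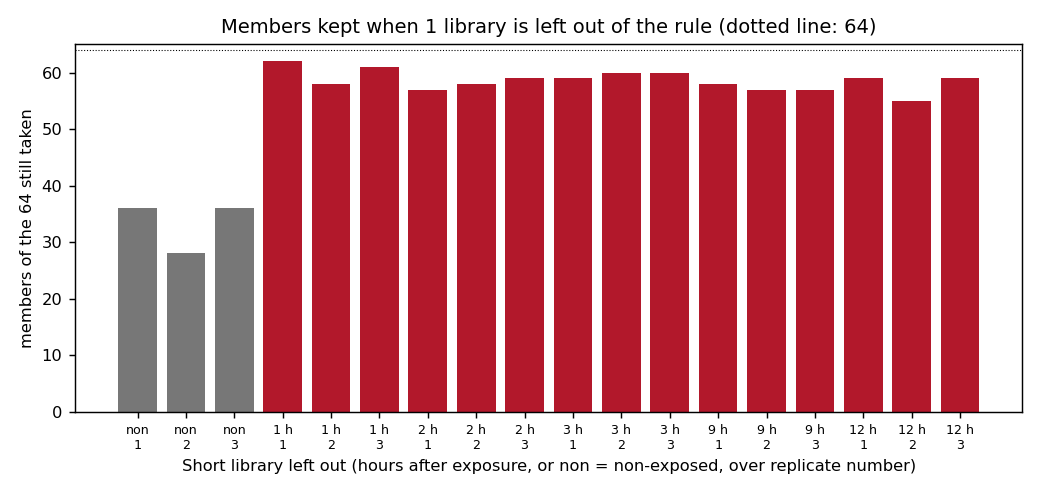
Number of the 64 members that the rule still took (vertical axis) when 1 Short library was left out (horizontal axis, grey for non-exposed, red for exposed). The bars stand at 36, 28 and 36 for the non-exposed libraries and between 55 and 62 for the exposed ones.

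The median level of the members was above that of the transcripts that could be taken, although 25 of the 64 had a mean TPM under 50. Their mean TPM over all 48 libraries ran between 11.03 and 1470.1 with a median of 93.6, against a median of 44.7 for the 8367 transcripts that could be taken. Over the 21 Long libraries alone, which the rule used only through that minimum, 20 of 64 members (31.2%) averaged at least 300 TPM, against 6.48% of the 8367 and 7.71% of the 467 that rose and held. Over all 48 libraries 23 members averaged at least 300 TPM, a boundary chosen after the values were seen.

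Separation and spread are given here by level. Among the 23 abundant members all 9 libraries of 1 to 3 h lay above the non-exposed ones in 14, and none was listed at 0 in a Short non-exposed library. Their mean TPM at 1 to 3 h was between 1.38 and 2.69 times that of the non-exposed animals, with a median of 1.67. Among the 25 members under 50 TPM the same separation was seen in 3, and the median SD of log2(TPM + 1) over the non-exposed libraries was 1.64, against 0.45 in the abundant members. In 59 of the 64 members the plain mean TPM was also higher at each of 1, 2 and 3 h. The exceptions were g783, g5606, g1549, g8394 and g9028, in which it was not higher at 1 or more of these times although the mean of the logs was. In g783 and g9028 the plain mean was lower at each of 1, 2 and 3 h. It was 0.88, 0.92 and 0.93 times the non-exposed mean in g783 and 0.80, 0.74 and 0.89 times in g9028.

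**Figure D3:**
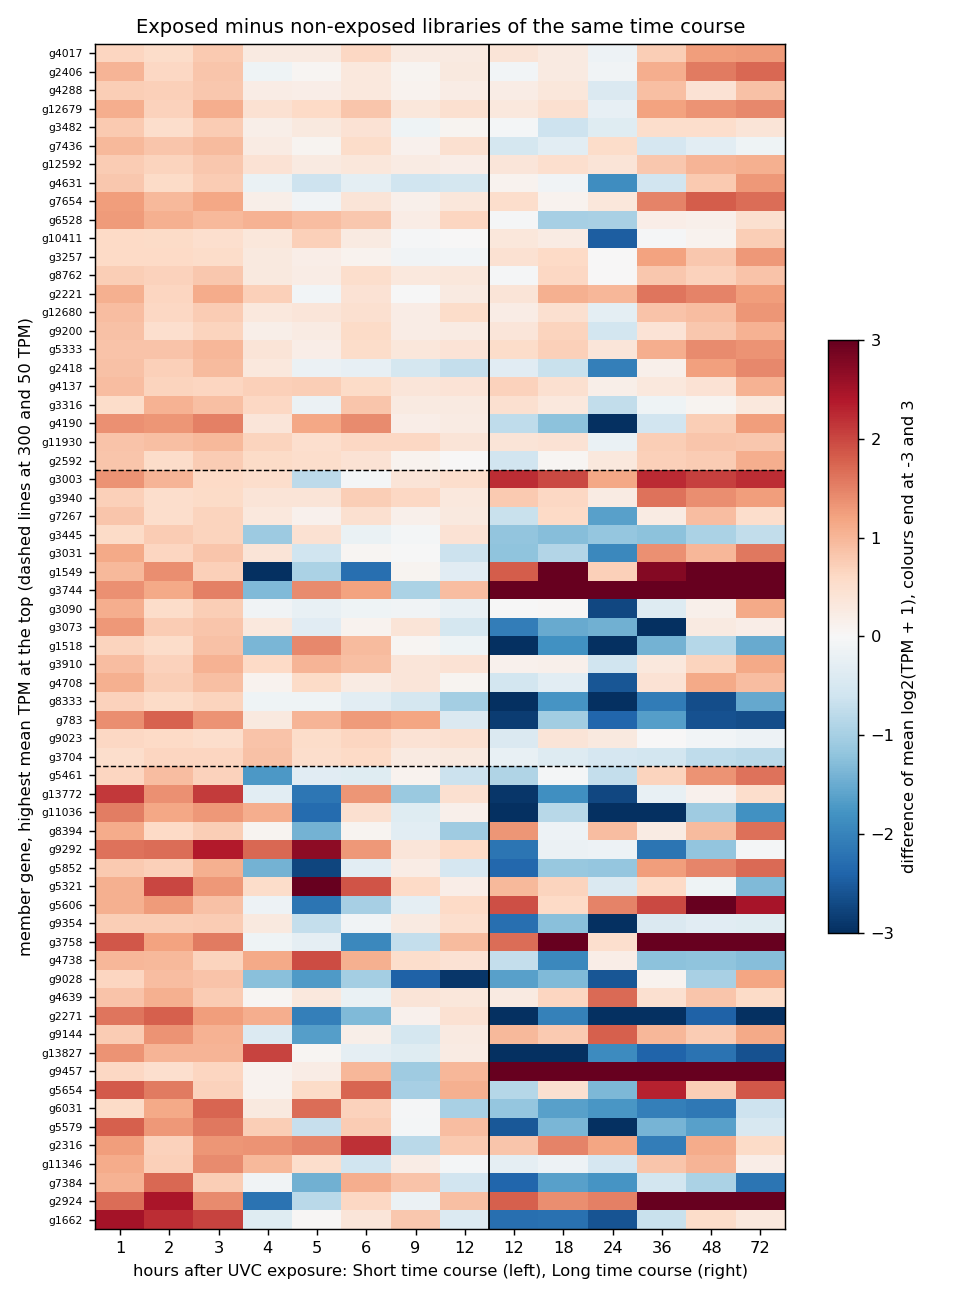
Difference of mean log2(TPM + 1), exposed minus non-exposed libraries of the same course, for each of the 64 members (vertical axis, highest mean TPM at the top) against hours after exposure (horizontal axis), red for higher and blue for lower. The 23 members above the upper dashed line (300 TPM) had medians of 0.86, 0.67 and 0.81 at 1, 2 and 3 h and 1.09 at Long 72 h, and those below the second line average under 50 TPM.

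Of the named members, 4 encode parts of the protein synthesis machinery. Elongation factor 1-delta (g12592) exchanges the guanine nucleotide of the factor that brings amino-acyl tRNA to the ribosome. It had 1268, 1158 and 1202 TPM at 1 h, 1155, 1105 and 1152 TPM at 2 h and 1304, 1261 and 1208 TPM at 3 h, against 723, 614 and 822 TPM in the non-exposed animals. All 9 early libraries lay above all 3 non-exposed ones, and D was 0.76, 0.67 and 0.81. The early libraries also lay close together within each time point. The mean at 1 h was 1209.5 ± 55.6 TPM (SD, n = 3), against 719.5 ± 104 TPM (SD, n = 3) in the non-exposed animals.

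The 3 ribosomal proteins moved by similar amounts. The match to 40S ribosomal protein S26 (g3257), which sits near the mRNA exit of the small subunit, had 1024, 879 and 923 TPM at 1 h, 974, 881 and 969.6 TPM at 2 h and 899, 894 and 953 TPM at 3 h, against 797, 511 and 590.0 TPM in the non-exposed animals. Here too the early libraries all stood above the non-exposed ones, with D of 0.60, 0.60 and 0.56. For 60S ribosomal protein L5 (g2592), which carries the 5S rRNA into the large subunit, the values were 453, 381 and 347 TPM at 1 h, 340.5, 338 and 286 TPM at 2 h and 426, 327 and 359.9 TPM at 3 h, against 210.4, 163 and 304 TPM in the non-exposed animals. One library at 2 h lay below the highest non-exposed library, so the groups overlapped there. The match to 40S ribosomal protein S20 (g4137), of the head of the small subunit, had 551, 509.7 and 554 TPM at 1 h, 533, 426 and 398 TPM at 2 h and 382, 550.1 and 427 TPM at 3 h, against 396, 200.3 and 289 TPM in the non-exposed animals. A single library at 3 h lay below non-exposed replicate 1. At 9 and 12 h D was 0.26 and 0.20 for g12592, -0.10 and -0.09 for g3257, 0.11 and 0.02 for g2592 and 0.37 and 0.42 for g4137.

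A glutathione S-transferase and a cytochrome P450 were among the named members, of which only the first is on the antioxidant and detoxification list described below. The match to glutathione S-transferase Mu 1 (g4017) was the most abundant member. It had 2137, 2009 and 1782 TPM at 1 h, 2048, 1613 and 1887 TPM at 2 h and 2449.8, 2074 and 1928 TPM at 3 h, against 1068, 1397 and 1311 TPM in the non-exposed animals. Every early library was above every non-exposed library. D was 0.66, 0.56 and 0.77 at these times and 0.26 and 0.26 at 9 and 12 h. The match to cytochrome P450 3A24 (g3940), an oxidase of foreign compounds in mammals, had 318, 254 and 245 TPM at 1 h, 214, 275 and 225 TPM at 2 h and 227, 210.2 and 303 TPM at 3 h, against 142, 162 and 191 TPM in the non-exposed animals. Its early libraries did not overlap the non-exposed ones either, and D was 0.74 at 6 h, 0.63 at 9 h and 0.32 at 12 h.

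A match to myelin P2 protein (g12679), a member of the family of small proteins that carry fatty acids inside cells, had 1314, 1109.8 and 1500.3 TPM at 1 h, 1089.5, 690.4 and 1249 TPM at 2 h and 1328, 1315 and 1227 TPM at 3 h, against 761, 384 and 769 TPM in the non-exposed animals. The 2 h group overlapped the non-exposed group, whose replicate 2 was the lowest. Its neighbour by gene number, g12680, has no Swiss-Prot match, and it had 829, 695 and 913 TPM at 1 h, 737, 559.5 and 671 TPM at 2 h and 737, 799 and 657 TPM at 3 h, against 408, 474 and 399.6 TPM in the non-exposed animals. In g12680 the 3 non-exposed libraries lay close together and all early libraries stood above them. They were the only members with adjacent or next-but-one gene numbers.

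Other named members match proteins of host defence, of a secreted protease family and of chromatin. Peptidoglycan-recognition protein SC2 (g2418), which in insects binds and cleaves bacterial cell wall fragments, had 859.7, 856 and 903 TPM at 1 h, 758, 784 and 792 TPM at 2 h and 943, 1106 and 720.3 TPM at 3 h, against 288, 599.6 and 609.6 TPM in the non-exposed animals. All early libraries were above the non-exposed ones. D was then -0.52 and -0.71 at 9 and 12 h, where the 6 libraries had between 216 and 364 TPM and overlapped the lowest non-exposed library. The match to zinc metalloproteinase NAS-13 (g3910), of the astacin family of secreted proteases, had 92.6, 66.2 and 112 TPM at 1 h, 124, 46.6 and 72.7 TPM at 2 h and 82.1, 114 and 94.5 TPM at 3 h, against 46.6, 39.1 and 53.8 TPM in the non-exposed animals. Of its groups at 1, 2 and 3 h only that at 2 h overlapped the non-exposed animals. Another gene matched to NAS-13, g11190, was not a member. Its transcript g11190.t1 had D of 0.30, 0.73 and 0.46 at 1, 2 and 3 h and 0.75 and 0.34 at 9 and 12 h. For g11190.t2 the values were 3.24, 1.61 and 2.80, then 2.51 and 3.54. Histone H4 (g7436), one of the 4 core proteins of the nucleosome, had 851, 1323 and 1476 TPM at 1 h, 1206, 830.1 and 1225 TPM at 2 h and 1235, 1214 and 1069 TPM at 3 h, against 612, 613 and 579.9 TPM in the non-exposed animals. Its non-exposed libraries were nearly equal and all below the early ones. Another match to histone H4, g3279.t1, was not a member. It had D of 3.26, 2.68 and 6.68 at 1, 2 and 3 h and 3.67 and 5.83 at 9 and 12 h. In many animals most core histone mRNAs carry no poly(A) tail, and the libraries were made with oligo d(T) beads.

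Several abundant members had no protein name. g7654 had 2227, 1089 and 1747 TPM at 1 h, 1542, 1099.8 and 1351 TPM at 2 h and 1924, 1107 and 1582 TPM at 3 h, against 629, 540.3 and 896 TPM in the non-exposed animals, the largest mean D of 1 to 3 h among the members of at least 300 TPM after g4190. All of its early libraries were above the non-exposed ones, with a mean of 1687 ± 571 TPM (SD, n = 3) at 1 h, against 688 ± 185 TPM (SD, n = 3) in non-exposed animals. g2406 had 2249.7, 2125 and 2060.1 TPM at 1 h, 1942, 1155 and 1893 TPM at 2 h and 1853, 2274 and 1576 TPM at 3 h, against 831, 1159 and 1228 TPM in the non-exposed animals. One library at 2 h fell among the non-exposed values, and the 9 h mean was 1134 ± 135 TPM (SD, n = 3). g4288 had 1614, 1746 and 1465 TPM at 1 h, 1420.2, 1657 and 1663 TPM at 2 h and 1367, 1866 and 1822 TPM at 3 h, against 1032, 859.5 and 997 TPM in the non-exposed animals, again with no overlap. g4190 had 447, 418 and 731 TPM at 1 h, 825, 257 and 604 TPM at 2 h and 743, 432 and 582 TPM at 3 h, against 253, 129.6 and 242 TPM in the non-exposed animals and no overlap, although one library at 2 h was close to the highest non-exposed one. g11036, a gene of lower level, had 109.9, 60.8 and 82.8 TPM at 1 h, 78.5, 39.6 and 82.4 TPM at 2 h and 94.8, 45.0 and 81.4 TPM at 3 h, against 27.1, 27.6 and 28.8 TPM in the non-exposed animals. Its 3 non-exposed libraries were almost equal and all 9 early libraries lay above them. The other 2 unnamed members that stayed under all omissions were g3031, with 237, 293 and 278 TPM at 1 h, 205, 162 and 208 TPM at 2 h and 238, 264 and 163 TPM at 3 h, against 159, 113 and 98.7 TPM in the non-exposed animals, and g5461, with 71.9, 67.7 and 42.9 TPM at 1 h, 90.8, 45.2 and 89.2 TPM at 2 h and 48.0, 62.9 and 76.2 TPM at 3 h, against 42.6, 33.8 and 36.2 TPM in the non-exposed animals. Neither overlapped. Singled out after their values were seen, g6528 had D of 1.03, 0.91 and 0.82 at 4, 5 and 6 h, and g4631 had D of -0.59 and -0.52 at 9 and 12 h.

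The members with the largest mean D over 1 to 3 h were mostly of low level. The 10 highest were g1662, g9292, g13772, g2924, g2271, g5579, g3758, g783, g5321 and g4190, with values between 1.40 and 2.25, and the mean TPM of all but g4190 was 68.3 or lower. g1662, the highest, had 29.5, 11.3 and 19.6 TPM at 1 h, 43.5, 6.28 and 12.7 TPM at 2 h and 24.0, 3.83 and 24.0 TPM at 3 h, against 9.16, 0 and 3.33 TPM in the non-exposed animals. The libraries at 2 h and 3 h overlapped the non-exposed ones, and replicate 2 of the non-exposed animals was listed at 0. g2924, g2271 and g783 were also listed at 0 in that library and g5321 in replicate 1. For g783 the values were 36.5, 64.2 and 190.4 TPM at 1 h, 75.9, 128 and 103 TPM at 2 h and 19.0, 152 and 139 TPM at 3 h, against 216, 0 and 117 TPM in the non-exposed animals. Its highest value of these 12 was thus a non-exposed library, while another was listed at 0. g3758, in contrast, had 87.0, 16.3 and 65.1 TPM at 1 h, 34.8, 25.7 and 26.4 TPM at 2 h and 85.4, 10.3 and 54.0 TPM at 3 h, against 16.6, 6.01 and 16.3 TPM in the non-exposed animals, with 2 early libraries inside the non-exposed range.

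Genes near the limits of the rule were not set apart from those outside it. The smallest D at 1, 2 or 3 h was 0.51 in g9457, against 0.50 in g12987 just outside. The highest mean D of 9 and 12 h was 0.499 in g11930, against 0.501 in g13050, and the lowest mean TPM was 11.03 in g1662, against 9.53 in g2923.

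The gene lists used here come from protein names of transcripts that the study had itself picked as higher on these libraries, so their direction is not independent evidence. Of 26 antioxidant and detoxification transcripts 1 was a member (g4017), of 24 digestive enzymes 1 (g3910) and of 8 histones 1 (g7436). The digestive list takes in every match to a zinc metalloproteinase, and a role of these in digestion was not tested. It also holds g11193, excluded by name. With 0.765% of the transcripts that could be taken being members, nothing is read from counts of 0 or 1 in lists of this size. No member came from the lists of DNA repair and replication (14 transcripts), mitochondrial respiration (13), ubiquitin and proteasome (22), heat-soluble proteins of tardigrades (9), muscle (7), yolk (1) or transcription and RNA polymerase II (14). The median D was -0.25 at 1 h and 1.28 at 9 h for DNA repair and replication, and 0.86 at 1 h and -0.40 at 9 h for the heat-soluble proteins. The members' medians were 0.95 and 0.12 at those times. The heat-soluble median pools families that moved apart. At 9 h D lay between 0.56 (g5971) and 1.37 (g7798) in the cytosolic proteins of this list. In its secretory proteins D lay between -1.50 (g1675) and -0.40 (g1681) at 9 h. A list of 25 translation transcripts, put together after the values were seen, held 4 members and had median D of 0.58, 0.17 and 0.42 at 1, 2 and 3 h and -0.05 at 9 h.

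The Long time course has no sample before 12 h, so it holds no second measurement of the early rise. It does give values that the rule used only through the mean TPM, and each exposed group was tested with limma against the Long non-exposed libraries. A member passed with an absolute log2 fold change over 1 and a p, adjusted over the 12088 transcripts by the Benjamini-Hochberg procedure, under 0.05. Calls of members as higher came mostly late in the Long course, with 4 passing at 36 h, 9 at 48 h and 14 at 72 h and none passing as lower at these times. Over all transcripts tested 0.811% were higher and 0.579% lower at 36 h, 1.40% higher and 3.72% lower at 48 h, and 2.12% higher and 8.53% lower at 72 h. Median log2 fold changes of the members were 0.37, 0.75 and 0.98 at 36, 48 and 72 h, and those of all transcripts tested were -0.01, -0.04 and -0.14. A late rise was also measured in the 467 transcripts that rose and held, whose medians were 0.68, 0.77 and 0.87, with 17, 19 and 32 of them passing as higher, and the difference between the sets was not tested. At each of these times 24 members (37.5%) had an unadjusted p under 0.05 in one direction or the other, against 17.2%, 22.3% and 26.6% of all transcripts tested at 36, 48 and 72 h. At 72 h 47 of the 64 members (73.4%) had a value above 0, against 44.6% of all transcripts tested and 74.7% of those that rose and held. All 3 libraries at 72 h lay above all 3 non-exposed libraries in 27 members, against 10.3% of all transcripts tested, and below them in 7, against 22.5%.

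To set level apart from the change at 72 h, transcripts were split at a mean of 300 TPM over the 27 Short libraries alone. Of the 23 members above this level 10 passed at 72 h (43.5%), and of the 41 below it 4 passed (9.76%). Among the transcripts that could be taken 72 of 565 above it passed (12.7%), and among those that rose and held 9 of 40 (22.5%). Below it 124 of 7802 that could be taken passed (1.59%), and 23 of 427 that rose and held (5.39%). These shares are descriptions without a test, at a boundary chosen after the values were seen. With each library scaled to a common median, 18 members passed as higher at 72 h, and the split over all transcripts changed to 390 higher and 464 lower, against 256 higher and 1031 lower as deposited. Without Long 72 h replicate 1 the count at 72 h was 5 and without replicate 2 it was 9, and without Long 48 h replicate 2 the count at 48 h was 5. The count at 36 h was between 0 and 2 when any 1 library of the Long non-exposed or the Long 36 h animals was left out, with 0 without Long 36 h replicate 2.

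**Figure D4:**
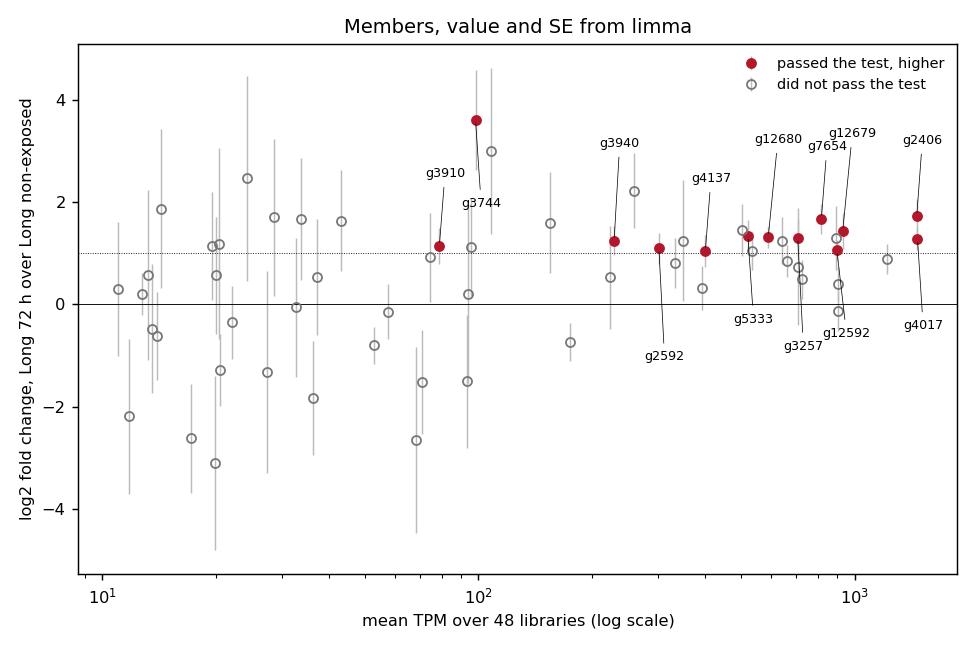
Log2 fold change with its SE at Long 72 h over Long non-exposed (vertical axis, from limma on log2(TPM + 1)) against mean TPM over 48 libraries (horizontal axis, log scale) for 61 members, leaving out 3 listed at 0 in every Long non-exposed library. Filled points passed the test, and apart from g3744 and g3910 they lie at 229 TPM or more with values between 1.05 and 1.73.

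All 9 members that passed at 48 h passed again at 72 h, as did the 4 of 36 h. g7654 had 674, 971 and 618 TPM at 36 h, 771, 1172 and 892 TPM at 48 h and 1131, 686 and 765 TPM at 72 h, against 322, 250.4 and 226 TPM in Long non-exposed animals. None of these exposed libraries overlapped the non-exposed ones. The log2 fold change in limma was 1.67 (SE 0.30, adjusted p = 0.00302) at 72 h. g2406 climbed further, with 1812, 1979.5 and 1628 TPM at 36 h, 2754, 2597 and 2157 TPM at 48 h and 3479.9, 3189.6 and 1936 TPM at 72 h, against 1014, 728 and 801 TPM without exposure. Its 72 h libraries were all above its highest non-exposed library, and 2 of them were above every Short library. At 72 h its log2 fold change in limma was 1.73 (SE 0.33, adjusted p = 0.00471).

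Glutathione S-transferase g4017 had 1934, 1967 and 1434 TPM at 48 h and 1691, 1888 and 1779.6 TPM at 72 h, against 719, 703 and 781 TPM in Long non-exposed animals. The groups lay far apart. By limma the log2 fold change at 72 h was 1.28 (SE 0.22, adjusted p = 0.00271). Cytochrome P450 g3940 stood highest at 36 h, with 333, 411 and 314 TPM, against 102, 126 and 114 TPM in non-exposed animals, and no library overlapped. Its log2 fold change in limma at 36 h was 1.62 (SE 0.29, adjusted p = 0.0134) and the gene also passed at 48 and 72 h.

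The lipid carrier g12679 had 1441, 1199 and 1348 TPM at 72 h, against 682, 367 and 469 TPM in non-exposed animals, and its neighbour g12680 had 899, 894 and 955 TPM, against 427, 324 and 356 TPM. Both were separated by wide gaps. In limma the log2 fold changes at 72 h were 1.43 (SE 0.35, adjusted p = 0.0160) for g12679 and 1.32 (SE 0.22, adjusted p = 0.00229) for g12680. The 4 members of the protein synthesis machinery all passed at 72 h. Elongation factor g12592 had 1186, 1060.3 and 964 TPM at 72 h, against 469, 649 and 437 TPM, S26 (g3257) 1175, 852 and 877 TPM, against 286, 583 and 349 TPM, and L5 (g2592) 736, 444 and 307 TPM, against 267, 244 and 158 TPM. No library at 72 h reached down to the non-exposed range in these genes. Their log2 fold changes in limma were 1.06 (SE 0.21, adjusted p = 0.00499) for g12592, 1.30 (SE 0.36, adjusted p = 0.0284) for g3257, 1.09 (SE 0.30, adjusted p = 0.0282) for g2592 and 1.05 (SE 0.31, adjusted p = 0.0379) for S20 (g4137). Over fits that each omit a single library of the 6, the call was kept in 4 of 6 for g12592, in 2 of 6 for g3257 and for g2592 and in 1 of 6 for g4137. Under quantile normalization none of the 4 passed, in the fit of only the 2 groups g3257, g2592 and g4137 did not, and g4137 was also lost under median scaling and with the replicate number as a block. For g12679 the call was kept in 4 of 6 omissions. Over the whole translation list 14 of 25 transcripts passed as higher at 72 h and none as lower. Of all transcripts tested 2.12% were higher and 8.53% lower. Lists and protein names cover only transcripts that the study had picked as higher on these libraries. Their direction at 72 h is thus not independent evidence. Of the other lists with a member, 5 of 26 antioxidant and detoxification transcripts and 9 of 24 digestive enzymes passed as higher and none as lower, and 2 of 8 histones passed as lower and none as higher.

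Of the other members that passed at 72 h, g5333 has no protein name and had 729, 586 and 561 TPM, against 218, 212 and 316 TPM, and the protease g3910 had 168, 108 and 139 TPM, against 69.9, 55.9 and 58.1 TPM. Neither overlapped. For these the log2 fold changes in limma were 1.34 (SE 0.31, adjusted p = 0.0116) for g5333 and 1.15 (SE 0.35, adjusted p = 0.0436) for g3910, whose call was lost when any 1 of the 6 libraries was left out. g3744 was uneven without exposure, with 111, 65.2 and 88.8 TPM at 72 h, against 0, 9.03 and 36.0 TPM. Its log2 fold change at 72 h, 3.61 with an adjusted p of 0.0253 in limma, depends on the amount added before taking logs, and its call was kept in 2 of 6 omissions. g9457 passed at every Long time but 24 h and was listed at 0 in all 3 Long non-exposed libraries, so no fold is given. It had 10.8, 29.6 and 23.9 TPM at 12 h and 9.36, 26.3 and 14.3 TPM at 72 h, and 11.7, 6.11 and 16.1 TPM in the Short non-exposed animals. The calls of g7654, g2406, g12680, g4017 and g9457 at 72 h were kept under every alternative listed in the closing section, single omissions included. Each of the other 9 calls at 72 h was lost without Long 72 h replicate 1.

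**Figure D5:**
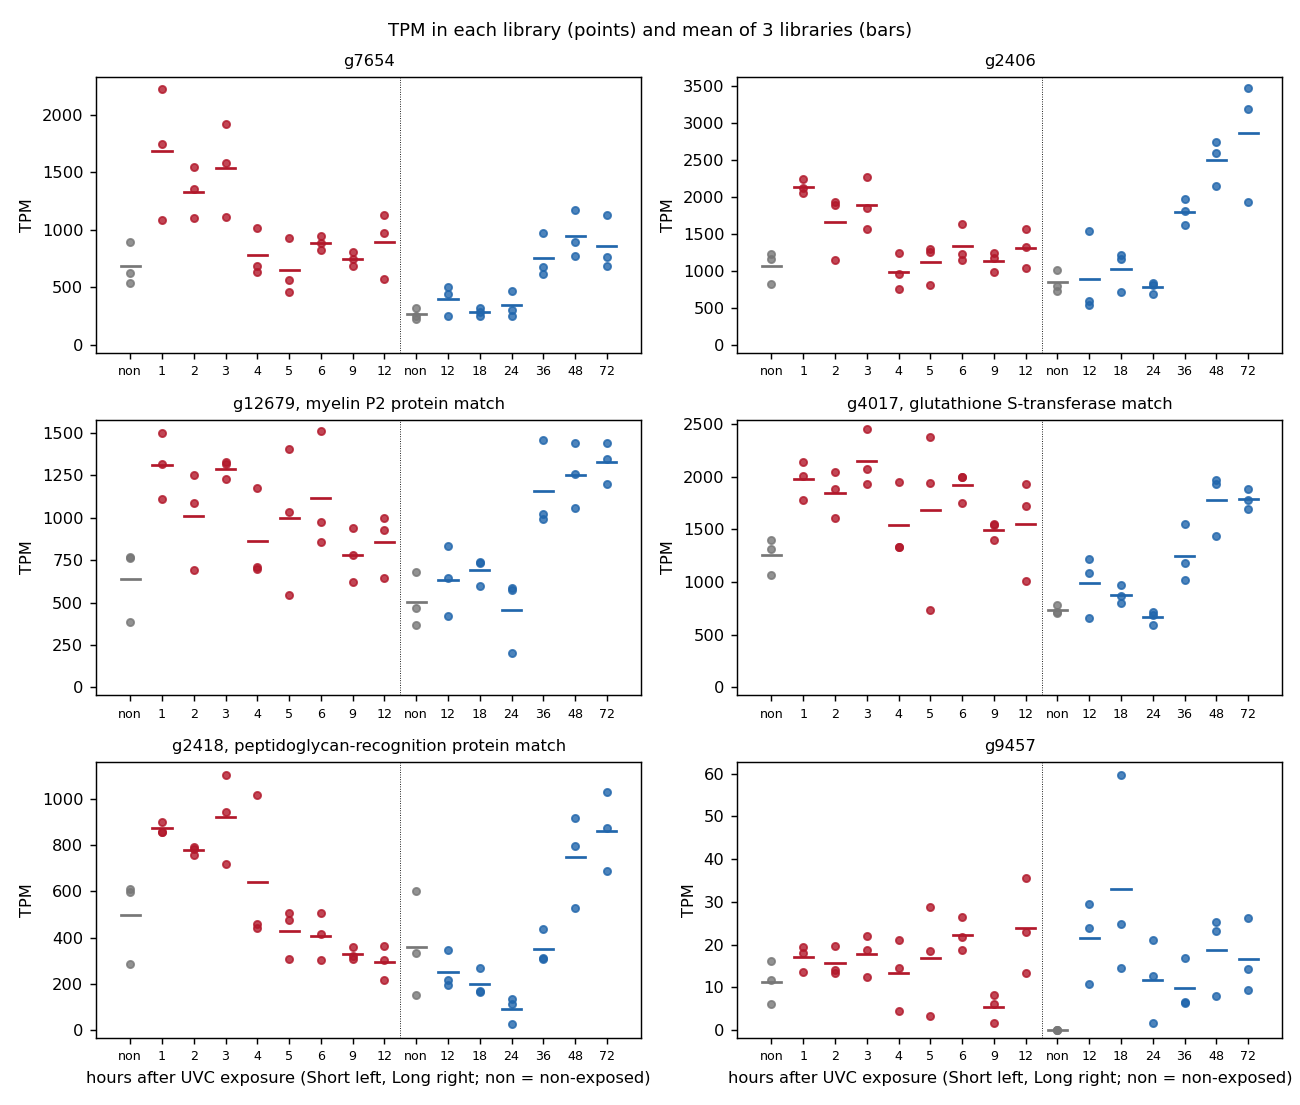
TPM in each library (vertical axis, points, with bars at the mean of 3 libraries) for 6 members against hours after exposure (horizontal axis), Short course on the left and Long course on the right, grey for non-exposed. g7654 is above its non-exposed range at 1 to 3 h and at Long 36 to 72 h, g2406 reaches 3479.9 TPM at Long 72 h, g2418 falls below its non-exposed range at Long 24 h, and g9457 is at 0 in the Long non-exposed libraries.

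At 12 and 18 h of the Long course the members showed no common direction, and at 24 h more of them were lower than higher. The median log2 fold change of the members was -0.05 at 12 h, 0.09 at 18 h and -0.47 at 24 h, against 0.01, 0.07 and 0 over all transcripts tested. Long 24 h replicate 1, with 17 members listed at 0, weighed on the value at 24 h. By library the median difference of the members from the non-exposed mean was -1.12, -0.07 and -0.15 in replicates 1, 2 and 3. Over all transcripts tested it was -0.23, 0.15 and 0.09. At 24 h 23 of the 64 members (35.9%) had a value above 0, against 49.1% of all transcripts tested. Limma gave 17 members (26.6%) an unadjusted p under 0.05 at 24 h, against 12.2% of all transcripts tested. All 3 exposed libraries stood above all 3 Long non-exposed ones in 5 members at 12 h, 10 at 18 h and 3 at 24 h, against 8.22%, 10.2% and 5.01% of all transcripts tested, and below them in 9, 10 and 11 members, against 7.49%, 10.4% and 5.60%. At 12 h 1 member passed as higher (g9457) and 2 as lower, against 0.546% and 0.265% of all transcripts tested. The lower ones were g11036, listed at 0 in all 3 libraries at 12 h and at 57.7, 93.4 and 28.0 TPM without exposure, and g13827, with 1.23, 2.32 and 0 TPM at 12 h, against 70.7, 71.5 and 70.1 TPM. At 18 h 1 member passed as higher (g9457) and none as lower, against 0.521% and 0.124%, with 13 members (20.3%) at an unadjusted p under 0.05, against 14.5% of all transcripts tested. At 24 h g3744 passed as higher and g9354 as lower, against 0.149% and 0.0414%. g9354 had 0.272, 5.93 and 4.00 TPM at 24 h, against 41.4, 87.2 and 26.04 TPM, and the group holds the library with the most zeros. Both calls were lost without Long 24 h replicate 1 or 3 and without Long non-exposed replicate 1 or 2. The 2 calls lower at 12 h became 1 without Long non-exposed replicate 3 and 0 without any other library of the comparison. g9457 was not called at 12 h without Long 12 h replicate 2 or replicate 3.

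Against the Long 12 h animals, collected at the time the algae were added, 4 members were higher at 48 h and 6 at 72 h and none was lower, against 0.893% higher and 1.40% lower at 48 h and 1.75% higher and 6.99% lower at 72 h over all transcripts tested. At 36 h no member passed in either direction, against 0.108% higher and 0.0248% lower of all transcripts tested. An unadjusted p under 0.05 was seen in 15 members (23.4%), against 13.7% of all transcripts tested. The members higher at both times were g7654, g2406, g2592 and g11036, and g2418 and g12680 passed at 72 h as well. g11036 was listed at 0 in all 3 libraries at 12 h, so no fold is given. Its calls were kept in 1 of 6 omissions at 48 h and 0 of 6 at 72 h, and were lost with a pseudocount of 5. At 48 and 72 h the calls were kept in 1 and 2 of 6 omissions for g7654. For g2406 and for g2592 it was 2 and 5 of 6. The call of g12680 at 72 h was kept in 4 of 6. g2418, the peptidoglycan-recognition match, had 873, 1030.5 and 687 TPM at 72 h, against 345, 218 and 196 TPM at 12 h, and the groups did not overlap. In limma its log2 fold change was 1.79 (SE 0.51, adjusted p = 0.0371), a call kept in 2 of 6 omissions and lost under quantile normalization, with the replicate number as a block and in the fit of only the 2 groups. L5 (g2592) had 736, 444 and 307 TPM at 72 h, against 173, 174 and 101 TPM at 12 h. The log2 fold change in limma was 1.67 (SE 0.30, adjusted p = 0.00828) at 72 h. The count at 72 h was 0 without Long 72 h replicate 1, and 3 if replicate 2 of Long 72 h or replicate 2 or 3 of Long 12 h was omitted. That at 48 h was 0 without Long 12 h replicate 2 or 3 or Long 48 h replicate 1 or 2.

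The share of all TPM held by the 100 most abundant transcripts lay above the non-exposed range at Long 72 h, and only partly so at 1 to 3 h. It was 25.7% to 30.8% over the 9 libraries of 1 to 3 h, against 24.3% to 26.4% in Short non-exposed libraries, and 26.97% to 30.2% at Long 72 h, against 23.1% to 24.2% in Long non-exposed libraries. The summed TPM of the 64 members was 23132 to 28942.5 at 1 to 3 h, against 13569 to 18471 in Short non-exposed libraries, and 23371 to 27012 at Long 72 h, against 12727 to 14156 in Long non-exposed libraries. The rule used the values at 1 to 3 h, so the higher sums there describe the selection. Share and sum did not move together in every library. In Long 24 h replicate 1 the share was 27.4% and the members summed to 10857 TPM. At Long 72 h the tested transcripts listed at 0 numbered 829 to 957, against 1791 to 2265 in Long non-exposed libraries. The part of these differences in the members' values was not tested.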

How the data were processed

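Polyadenylated RNA of whole animals was sequenced in 48 libraries. The authors quantified the reads with kallisto (v0.44.0) against their gene set and deposited TPM for 14532 transcripts per library, without pooling replicates. TPM sums to the same total in every library, so it hides depth, and transcripts that rise lower the rest. The authors' own tests used read counts that are not used here. Sample labels gave the groups and replicate numbers, and 0 columns were left unmatched.

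Deposited TPM was transformed as log2(TPM + 1), which makes changes of low transcripts look smaller. Each time course was fitted as a whole with limma 3.58.1 in R 4.3.3 (eBayes with a trend), over 12088 transcripts averaging 1 TPM or more, and all 64 members passed this filter. Only comparisons outside the rule were tested, 11 in all, each with its own Benjamini-Hochberg adjustment. The p-values measure the spread between these libraries, which may be technical. An exact permutation test on 3 libraries against 3 has a smallest p of 0.1. Python 3.11.15 did the rest.

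The members and lists were chosen with earlier results of these data known. Named are members with a protein name, the 10 with the largest early D, those that passed a test (all of them up to 10 in a comparison, otherwise the 5 largest changes), those at the limits and those with neighbouring gene numbers. The rest of the members named at 72 h were chosen after seeing their values. Protein names came from the study's annotation tables. Sequences are not used here. Alternative settings covered the pseudocount (0.1 or 5), the filter (absent, or 5 TPM), median scaling and quantile normalization, the replicate number as block, fits restricted to the 2 groups of a comparison, and the omission of single libraries. For the rule, mean TPM of at least 1 or 20 and a D of 0.75 were tried. Omissions at 4 and 5 h were chosen after seeing the data.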

Additional observations from a re-analysis of the deposited data

How the results depend on the processing

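With another choice the rule took 100 genes with a mean TPM of at least 1, with median scaling and with quantile normalization (the most it allows), of which 53, 58 and 42 were among the 64, and 37 with a D of 0.75, of which 22 were. Leaving out 1 library gave 62 to 94. In the Long course the range over single omissions was 0 to 2 members higher and 0 to 1 lower at 12 h, 1 to 2 higher at 18 h, 0 to 1 higher and 0 to 2 lower at 24 h, 0 to 2 higher at 36 h, 5 to 11 higher at 48 h and 5 to 12 higher at 72 h. Against Long 12 h it was 0 to 1 higher at 36 h, 0 to 5 at 48 h and 0 to 9 at 72 h, and 0 to 2 members were lower at Short 5 h than at Short 4 h. The members with a D of at least 0.5 were 31 at 4 h without Short 4 h replicate 3 and 30 at 5 h without Short 5 h replicate 2. A fit of only the 2 groups compared called 0 members higher and 0 lower at Long 12 h, 0 higher at 18 h, 0 higher and 0 lower at 24 h, 2 lower at each of 36, 48 and 72 h, and 1 higher at 48 h and 0 higher at 72 h against Long 12 h, where fewer libraries estimate the spread. With a pseudocount of 5 it was 0 higher at Long 12 h and 1 lower at each of 48 and 72 h, and with 0.1 it was 1 lower at 12 h. At 24 h 0 were higher with no filter and with median scaling, and quantile normalization gave 2 higher and 0 lower there, 1 lower at 48 h and 1 higher at 36 h against Long 12 h. Median scaling gave 2 higher at 48 h and 10 at 72 h against Long 12 h. The replicate block gave 0 higher and 0 lower at 24 h, 13 higher at 72 h, 8 at 48 h and 4 at 36 h. Same-numbered libraries did not deviate together, with a mean correlation of 0.0009 over 108 Short pairs and -0.011 over 63 Long pairs, of which 3 and 1 were over 0.1. No call of a single member turned its direction in the alternatives run, and 172 repeats lost the call. The 432 repeats that kept their result include those of the members' median D at 4 and 5 h, which are not calls. The cause of these changes was not tested. Sequencing depth is not in the values, so zeros in low members cannot be weighed.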
